A study of Mus musculus with 6 samples.

Results

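The Zfp genes are the mouse genes that carry the symbol Zfp, for zinc finger protein, followed by a number. Members were the genes whose platform symbol is Zfp and a number of 1 to 3 digits, except Zfp36, which belongs to another zinc finger family. The rule used names only and no measured value. It gave 304 genes of the 18193 that the array measures with a probe set naming a single gene, and these 304 have 574 such probe sets. For each gene the probe set with the highest mean over the 6 arrays was used, and the others were used to see whether they moved alike. Of the 304 genes, 148 have 1 probe set and 156 have more, up to 7. A further 14 Zfp symbols occur only on probe sets that name several genes and were left out, among them Zfp706, Zfp747 and Zfp600.

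Most C2H2 zinc finger proteins bind DNA through a row of finger modules, each of which contacts a few bases. Many of the mouse proteins also carry a KRAB domain, which recruits Trim28 (KAP1) and, through it, the histone methyltransferase Setdb1 and HP1 proteins, and so silences retroelements and some genes. Genes of the KRAB type have expanded in clusters along the chromosomes. In fat tissue and its stromal precursors a few members have known parts: Zfp423 and Zfp467 favour fat cell formation, and Zfp521 opposes it. The label of transcription factor genes does not cover every member, since Zfp622 acts in ribosome maturation, Zfp598 is a ubiquitin ligase of collided ribosomes, Zfp207 works at the mitotic spindle, and Zfp106 and Zfp346 bind RNA.

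The levels come from 6 expression arrays of a commercial mouse mesenchymal stem cell preparation, one irradiated and one control culture in each of 3 experiments. Irradiated cultures received 2 h of pulsed broadband terahertz radiation (35 fs pulses at 1 kHz, centred near 10 THz, 1 mW/cm2), and the control stood next to the irradiated dish at the same 26 to 27 °C. Both kinds of culture had been given dexamethasone (1 µM), IBMX (100 µM, which blocks phosphodiesterases), rosiglitazone (1 µM) and insulin (5 µg/ml), a mixture that drives fat cell formation, last added 48 h earlier, so no array shows cells without it. RNA was taken directly after exposure. No strain, sex or age of the source animals is used here, and the labels name one supplier's cells, so the 3 experiments are separate cultures and not known to be separate animals. Values are deposited log2 levels, in which a difference of 1 is 2-fold. All differences are relative to the other transcripts of the array, since the arrays were normalized to each other.

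The cell type label was set against marker genes. Of 9 measured stromal markers, 8 lay above the median probe set of 4.84 on all 6 arrays, with a mean level of 9.42 to 9.53. Thy1 lay below it. Fat cell markers averaged 10.40 to 10.61, with 7 of 8 above the median on all arrays, and only the leptin gene Lep was below. The 10 macrophage and leukocyte markers, among them Cd68, Adgre1, Csf1r and Ptprc, were also all above it, with means of 10.77 to 11.05, so the cultures held transcripts typical of macrophages beside stromal and fat cell ones. In such mixed cultures fewer cells of a type and less RNA per cell cannot be told apart. The 3 measured osteoblast markers were all above the median on all arrays too, with means of 8.41 to 8.68. Skeletal muscle markers averaged 4.50 to 4.74, with 2 of 5 above it on all arrays. Markers of pluripotent, endothelial, epithelial and lymphoid cells averaged 3.05 to 4.44. Above the median on all arrays were 1 of 5 epithelial, 1 of 5 endothelial and 1 of 4 lymphoid markers. These were Epcam at a mean of 7.52, Kdr at 5.60 and Cd3e at 5.19.

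Zfp transcripts lay mostly in the lower middle of the array's range. The median member had a level of 6.01, with quartiles of 4.62 and 7.12, against a median of 6.38 and wider quartiles of 4.03 and 8.56 over all genes. A level at or above the median probe set was reached by 217 members (71.4%), against 64.5% of all genes. Only 12 members had a mean level of 9 or more, and 40 were under 4, where signal and background are hard to separate. Array levels depend on the probes as well as on the transcript, so they do not rank transcripts.

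**Figure D1:**
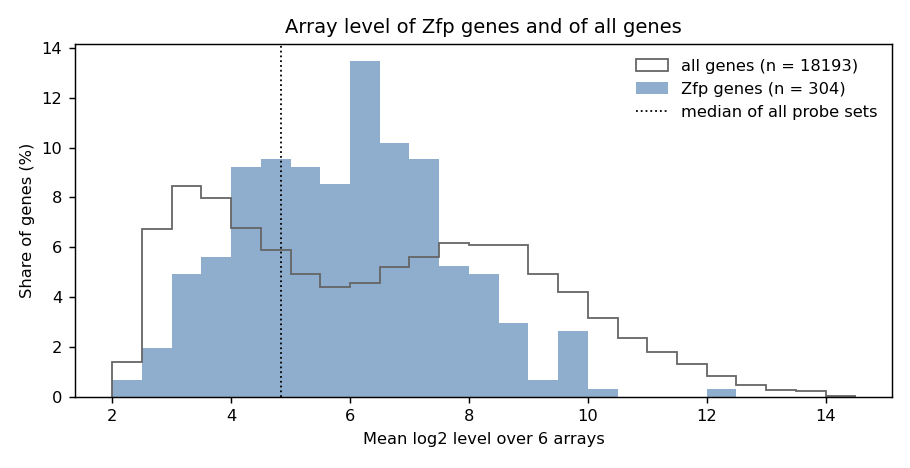
Share of genes (percent) by mean log2 level over 6 arrays, for 304 Zfp genes (filled) and all 18193 genes (outline), with the median probe set as a dotted line. The Zfp genes crowd between 4 and 8 and have few members at the bright end.

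The member with the highest array value was Zfp622, a factor of large ribosomal subunit maturation. It read 12.21, 12.46 and 12.45 in controls 1 to 3 and 12.35, 12.41 and 12.46 in the irradiated cultures. That probe set is of a kind that can bind other transcripts, and the other 4 probe sets of Zfp622 averaged 9.30, 8.36, 4.19 and 4.09. Next came Zfp655 at a mean of 10.06, Zfp52 at 9.91, the spindle protein gene Zfp207 at 9.88, the repressor gene Zfp503 at 9.86, Zfp106 at 9.85, Zfp330 at 9.76 and Zfp445, which helps to keep DNA methylation at imprinted genes, at 9.71. On its chosen probe set Zfp207 spanned only 9.81 to 9.94 over the 6 arrays, while Zfp503 ran from 9.53 to 10.29. The other probe sets of Zfp207 read lower in experiment 3 than in experiment 1. Those at mean levels of 6.71 and 6.36 differed by -0.63 and -0.84 (limma adjusted p = 0.0354 and 0.0157). The dimmer ones differed by -0.34 to -0.23 without passing the test.

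Genes with a role in the fat lineage were measurable but not bright. Zfp423, which commits precursors to the fat lineage, averaged 6.58. Zfp521, which opposes that step, averaged 7.86, and Zfp516, an activator of brown fat genes, averaged 7.92. Zfp467, which steers stromal cells to fat rather than bone, averaged 4.90, near the median probe set, on a probe set that can bind other transcripts. Zfp42 (Rex1), a marker of pluripotent cells, averaged 2.57 and was among the lowest of all members, beside Zfp616 at 2.32 and Zfp735 at 2.41. Zfp57, an imprint protector of early embryos, averaged 4.59.

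Regulators with general roles had clear signal. The GC-rich DNA binders Zfp281 and Zfp148 averaged 8.85 and 7.90, the ubiquitin ligase gene Zfp91 9.60, the BTB-domain gene Zfp131 9.34, the splicing factor gene Zfp326 8.71, and Zfp410, an activator of Chd4, 8.45. Zfp24 averaged 8.49, Zfp598 8.29, Zfp318 7.85, Zfp346 7.14, the retroviral silencer Zfp809 7.13, the chromatin complex gene Zfp335 6.80, the oncogene Zfp217 6.60 and Zfp568, a repressor of a placental Igf2 transcript, 6.56. Each figure is a mean over 6 arrays. Zfp143 has no probe set that names it alone, so its level is not analysed here.

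The first comparison asked whether 2 h of terahertz exposure altered these transcripts within the pairs. It gave no member past the threshold: 0 of 304 had an adjusted p under 0.05 by limma, and the share over all genes was 0.0%. Adjusted p ran from 0.929 to 1.0. At an unadjusted p under 0.05 limma listed 12 members (3.95%), 4 higher and 8 lower after irradiation, near the background of 4.14%. Differences were positive for 156 members and negative for 145, and 3 were 0. The median was 0.005, against 0.003 over all genes. The precision was good enough to bound most effects, since the 95% interval of 296 members lay inside 1.5-fold and that of all 304 inside 2-fold.

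Within single pairs the members leaned slightly and not always the same way. Their median irradiated minus control difference was -0.02 in pairs 1 and 2 and 0.06 in pair 3, against 0.01, 0.00 and 0.00 over all genes. Of the 289 members with no pair difference of 0, 72 (24.9%) had the same sign in all 3 pairs, 34 up and 38 down, and the share over all genes was 26.2%.

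Among members with signal, Zfp287 had the smallest unadjusted p on the higher side. Its levels in controls 1 to 3 were 5.65, 5.48 and 5.21, and in their irradiated partners 5.95, 5.86 and 5.60. Each irradiated culture read above its own control, while the groups overlapped across experiments. The difference was 0.36 ± 0.08 (SE, n = 3 pairs; 95% interval 0.17 to 0.54), with a limma adjusted p of 0.929. The other 3 probe sets of Zfp287, all dim at 2.77 to 3.71, had differences of -0.05, -0.13 and -0.02.

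The promoter of Zfp287 is printed because, among members at or above the median level, it had the smallest unadjusted p on the higher side. It is the RefSeq sequence of assembly GRCm38.p6 (chr11:62731847-62732146, minus strand), from 250 bases before to 50 after the annotated start, and the capitals mark a CCAAT box read on the opposite strand.
Zfp287: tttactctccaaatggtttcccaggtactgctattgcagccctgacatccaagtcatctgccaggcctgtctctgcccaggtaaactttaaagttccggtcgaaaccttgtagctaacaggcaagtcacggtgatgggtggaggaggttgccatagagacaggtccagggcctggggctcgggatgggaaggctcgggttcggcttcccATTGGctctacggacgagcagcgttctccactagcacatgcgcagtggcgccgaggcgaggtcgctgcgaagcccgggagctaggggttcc

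The 5 other members named on the higher side were Zfp27 (0.28 ± 0.09), Zfp619 (0.22 ± 0.09), Zfp169 (0.19 ± 0.08), Zfp952 (0.17 ± 0.08) and Zfp13 (0.22 ± 0.10), each a log2 difference with its SE. Zfp27 went from 5.01 to 5.12, from 4.87 to 5.13 and from 4.66 to 5.12 in pairs 1 to 3, so its pair differences ran from 0.11 to 0.46. Of those named on the lower side, Zfp958 had the smallest unadjusted p, with pair differences of -0.24, -0.20 and -0.28. Its levels were 7.10, 6.72 and 6.56 in controls and 6.86, 6.52 and 6.28 after irradiation, a difference of -0.24 ± 0.08. The others were Zfp229 (-0.26 ± 0.08), Zfp935 (-0.30 ± 0.10), Zfp9 (-0.20 ± 0.08), Zfp386 (-0.21 ± 0.09) and Zfp560 (-0.20 ± 0.08). None of these passed the test, and limma's adjusted p was 0.929 for each.

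**Figure D2:**
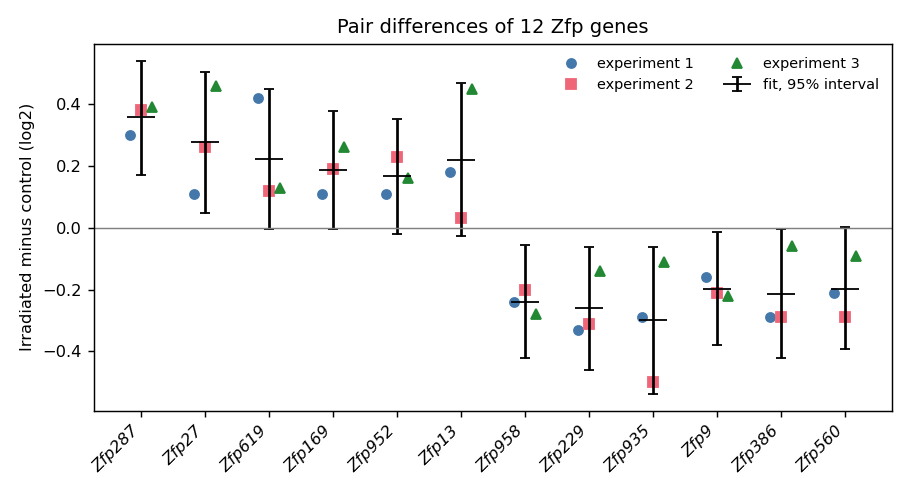
Irradiated minus control difference (log2) of 12 Zfp genes in each of 3 experiments (symbols), with the fitted difference (short line) and its 95% interval (bar). The points of each gene share a sign because the genes were chosen so, and the adjusted p is 0.929 for each.

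Below the median level, 3 members were picked out after their values were seen. Zfp748 had the smallest unadjusted p of all members, with 5.55, 4.90 and 4.60 in controls and 4.98, 4.52 and 4.26 after irradiation, a difference of -0.43 ± 0.08. Zfp551 differed by 0.35 ± 0.08 and Zfp979 by -0.36 ± 0.09 at mean levels of 3.74 and 3.88. The limma adjusted p was 0.929 for all of them. Probe sets of 1 gene could also part: for Zfp24, the representative probe set had a difference of 0.03, while a dim one at a mean of 4.65 had 0.54 and the other 4 lay between -0.09 and 0.03.

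The members with known roles gave no call either. Of 26 measured, 17 had positive and 8 negative irradiated minus control differences, from -0.16 for Zfp423 to 0.36 for Zfp287. The proteins that KRAB-type members work with were read from a list of corepressors and silencing factors, of which 26 of 29 were measured. Of these, 24 had positive and 2 negative differences, with a median of 0.075 and a range of -0.08 to 0.23, and 0 passed the test. These are averages over the pairs, and in pair 2 alone the signs were mixed. There Atrx read 9.08 in control and 8.97 after irradiation and Chd4 8.91 and 8.79, while Dnmt1 read 8.65 and 8.86 and Cbx5 7.93 and 8.08. Over all genes 50.5% of differences were positive. Marker genes also differed between the arms without passing: the 10 macrophage and leukocyte markers were all positive (median 0.083), and 7 of 8 fat cell markers were negative (median -0.13). Their part in the corepressor values was not tested. Trim28, the KRAB-binding corepressor, read 10.78, 10.58 and 10.68 in controls and 10.81, 10.74 and 10.92 after irradiation. Setdb1, the histone methyltransferase it recruits, read 7.73, 7.68 and 7.40 in controls and 7.79, 7.78 and 7.74 after irradiation. Both read higher in every pair, by 0.14 and 0.17 on average.

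Differences between experiments 3 and 1 were larger than those between irradiated and control cultures. Sign aside, the median difference of members was 0.17 for experiment 3 minus 1, 0.14 for 2 minus 1 and 0.115 for 3 minus 2. Within pairs 1 to 3 it was 0.11, 0.11 and 0.14. The experiment values compare means of 2 arrays and the pair values single arrays, so their sizes are not strictly alike. Over the 6 arrays the median member spanned 0.42 on the log2 scale, against 0.33 over all genes. Between experiments 3 and 1, 25 members (8.22%) fell and 2 (0.658%) rose at an adjusted p under 0.05 by limma, whereas over all genes 1.07% fell and 2.07% rose. Among genes at or above the median level, 23 of 217 members (10.6%) fell, against 1.52% of all such genes. Negative differences were found in 208 members and positive ones in 95. The median difference was -0.095 among members and -0.02 over all genes. The shares are given as a description, and no test over the list was made.

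The arms of the 2 experiments were separated in many more members than passed the test. Both arrays of experiment 3 lay below both arrays of experiment 1 in 127 members (41.8%; 29.7% over all genes), and above them in 45 (14.8%; 21.3% over all genes). A stepwise pattern, with both arrays of experiment 2 below both of experiment 1 and both of experiment 3 lower again, was seen in 35 members (11.5%; 7.12% over all genes). The stepwise rise was seen in 6 (1.97%; 4.22% over all genes), which were Zfp131, Zfp428, Zfp672, Zfp703, Zfp771 and Zfp811.

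**Figure D3:**
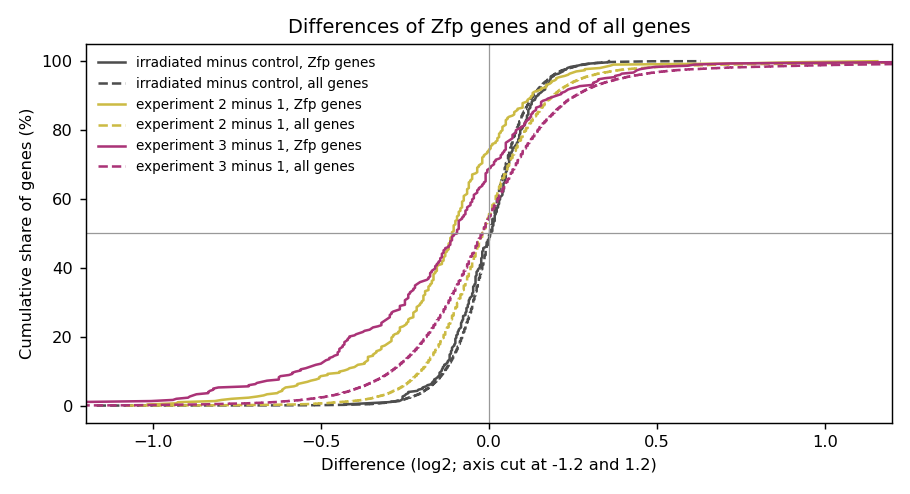
Cumulative share of genes (percent) by log2 difference, for 304 Zfp genes (solid) and all 18193 genes (dashed), in irradiated minus control, experiment 2 minus 1 and experiment 3 minus 1. The irradiation curves of both sets almost coincide, while both experiment curves of the Zfp genes lie to the left of those of all genes, with medians of -0.11 and -0.095 against -0.02.

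The 25 members that fell between experiments 1 and 3 lost 0.52 to 1.49 on the log2 scale, with a median of -0.80, or 1.75-fold, and adjusted p of 0.00554 to 0.0493 by limma. Their mean levels ran from 3.74 to 8.99. In all 25, experiment 2 lay between the other two by its mean, and in 18 the 3 experiments stepped down with no overlap. The call picks a wide and steady gap between experiments 1 and 3, which favours such an order. Its share among all genes that fell was not counted. Given by arm as a description, since the call uses both arms, controls 3 minus 1 had a median of -0.80 (-1.61 to -0.54), and irradiated cultures 3 minus 1 a median of -0.68 (-1.62 to -0.48). The 25 were Zfp11, Zfp28, Zfp90, Zfp105, Zfp110, Zfp111, Zfp157, Zfp229, Zfp292, Zfp362, Zfp386, Zfp423, Zfp551, Zfp606, Zfp608, Zfp629, Zfp748, Zfp760, Zfp763, Zfp770, Zfp799, Zfp810, Zfp871, Zfp945 and Zfp958.

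These calls need all 6 arrays, as does every call over all probe sets in this comparison. A fit with an array or experiment missing keeps only 1 residual degree of freedom. When experiment 2 or any single array, control or irradiated, of experiments 1, 2 or 3 was left out, 0 members passed the test in either direction, and the smallest limma adjusted p among the 25 lay between 0.105 and 0.387. All 25 differences stayed negative in each of those fits, with medians of -0.81 to -0.65. The 25 were chosen by this same difference, and the fits share most of their arrays, so the kept sign was largely set in advance. With 2 cultures in each experiment, the experiment, the culture preparation and the array processing cannot be told apart.

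Some array measures differed by experiment, and macrophage and fat cell marker means were lower in experiment 3 than in experiment 1 within each arm. The difference between the 3' and 5' probe sets of Gapdh, a measure of RNA integrity and labelling, was 0.19 and 0.23 on the arrays of experiment 1 and -0.05 to -0.01 on the other 4. The same measure for Actb was 0.75 and 0.76 in experiment 1 and 0.61 to 0.72 on the other 4, so both genes read highest in experiment 1. The hybridization spike-ins averaged 11.63 on control 3 and 11.06 to 11.25 on the others. In control and irradiated culture, mean macrophage markers were 10.96 and 11.05 in experiment 1 and 10.77 and 10.97 in experiment 3. Fat cell markers were 10.61 and 10.41 against 10.52 and 10.40. For experiment 3 minus 1, 8 of 10 macrophage and leukocyte markers were negative and 2 positive, with a median of -0.18. Of 8 fat cell markers, 6 were negative and 2 positive, with a median of -0.11. None of these markers passed the test, and 54.0% of all genes had a negative difference. The part of these measures in the experiment differences was not tested.

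The smallest adjusted p belonged to Zfp763. It read 5.77 in control and 5.72 in irradiated culture 1, 5.32 and 5.01 in experiment 2, and 4.48 and 4.47 in experiment 3. The 3 experiments did not overlap. The fall from experiment 1 to 3 was -1.27 ± 0.11 (SE; 2 arrays in each experiment), 2.41-fold, with an adjusted p of 0.00554 by limma. Its second probe set, dim at 3.20, had a difference of 0.12.

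Zfp11 had the largest fall of all members. It read 5.76 and 5.66 in control and irradiated culture of experiment 1, 4.59 and 4.80 in experiment 2, and 4.41 and 4.04 in experiment 3. Most of the drop lay between experiments 1 and 2, and experiments 2 and 3 did not overlap. The difference was -1.49 ± 0.15, 2.80-fold, with an adjusted p of 0.00799 by limma.

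Zfp423, the fat lineage commitment factor, fell as well. Its control and irradiated levels were 7.13 and 6.95 in experiment 1, 6.74 and 6.45 in experiment 2, and 6.12 and 6.10 in experiment 3, again with no overlap. The difference was -0.93 ± 0.11, 1.91-fold, with an adjusted p of 0.0116 by limma. The other fat lineage members did not pass the test: Zfp521, its opponent in commitment, differed by -0.27 ± 0.13, Zfp516 by -0.29 ± 0.12 and Zfp467 by -0.21 ± 0.13. The 8 measured fat cell markers had a median difference of -0.11, and 0 passed.

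Zfp945 and Zfp157 complete the 5 with the smallest p. Zfp945 read 5.99 and 6.04 in experiment 1, 5.87 and 5.73 in experiment 2, and 5.19 and 4.96 in experiment 3, so its drop came mainly in experiment 3. Its difference was -0.94 ± 0.11 (limma adjusted p = 0.0117), and its other 2 probe sets, at mean levels of 4.50 and 4.17, had -0.31 and 0.02. Zfp157 read 6.32 and 6.25, then 5.75 and 5.59, then 5.35 and 5.44, a fall of -0.89 ± 0.10 (limma adjusted p = 0.0126). Its second probe set, at 2.97, had -0.34.

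The promoters of these 5 members are printed because these had the smallest adjusted p among the members that fell. They come from RefSeq, assembly GRCm38.p6, and run 5′ to 3′ on the strand of the gene, 250 bases before to 50 after the most upstream start listed. Zfp763 lies at chr17:33033332-33033631, minus strand, Zfp11 at chr5:129670039-129670338, minus strand, Zfp423 at chr8:87959546-87959845, minus strand, Zfp945 at chr17:22867085-22867384, minus strand and Zfp157 at chr5:138441226-138441525, plus strand. Capitals mark every match, on either strand, to the 7 short motifs described after them.
Zfp763: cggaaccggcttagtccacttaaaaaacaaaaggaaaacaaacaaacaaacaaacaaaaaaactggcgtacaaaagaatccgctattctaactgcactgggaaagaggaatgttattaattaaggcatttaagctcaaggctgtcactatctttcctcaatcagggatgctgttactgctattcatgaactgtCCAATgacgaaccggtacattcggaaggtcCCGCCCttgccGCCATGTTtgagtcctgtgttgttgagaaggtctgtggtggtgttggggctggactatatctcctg
Zfp11: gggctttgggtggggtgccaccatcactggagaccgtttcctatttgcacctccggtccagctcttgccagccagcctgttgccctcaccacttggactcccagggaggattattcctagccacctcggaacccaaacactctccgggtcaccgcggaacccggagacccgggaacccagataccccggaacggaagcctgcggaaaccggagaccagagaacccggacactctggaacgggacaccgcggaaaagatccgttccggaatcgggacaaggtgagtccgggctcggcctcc
Zfp423: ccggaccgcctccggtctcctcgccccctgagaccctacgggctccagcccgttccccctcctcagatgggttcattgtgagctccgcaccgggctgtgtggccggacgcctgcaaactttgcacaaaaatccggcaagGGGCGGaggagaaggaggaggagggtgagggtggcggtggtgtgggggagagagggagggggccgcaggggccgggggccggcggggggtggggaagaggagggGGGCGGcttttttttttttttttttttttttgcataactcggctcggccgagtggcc
Zfp945: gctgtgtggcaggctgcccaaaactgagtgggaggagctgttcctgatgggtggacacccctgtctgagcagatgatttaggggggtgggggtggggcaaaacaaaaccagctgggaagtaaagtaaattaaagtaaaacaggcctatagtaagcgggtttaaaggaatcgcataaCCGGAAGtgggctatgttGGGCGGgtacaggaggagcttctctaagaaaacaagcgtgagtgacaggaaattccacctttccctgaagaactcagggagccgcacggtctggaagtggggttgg
Zfp157: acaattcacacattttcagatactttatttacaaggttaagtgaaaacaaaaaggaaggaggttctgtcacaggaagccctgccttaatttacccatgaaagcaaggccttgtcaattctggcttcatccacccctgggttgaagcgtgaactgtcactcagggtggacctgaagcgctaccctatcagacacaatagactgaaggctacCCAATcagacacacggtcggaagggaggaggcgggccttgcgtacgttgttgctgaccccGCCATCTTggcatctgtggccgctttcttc

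The printed promoters share no single motif. Zfp763 holds a GC box, a CCAAT box and a YY1 core, Zfp157 a CCAAT box and a YY1 core, Zfp945 a GC box and an ETS core, and Zfp423 GC boxes alone, while Zfp11 holds no match. Over the 250 members with a promoter entry, the median was 15 CpG dinucleotides per promoter, against 7 over all 27025 promoters, and GC content was 55.2% against 52.7%. The TATA box TATAAA was found in 6.8% of member promoters and 14.2% of all, and the ETS core CCGGAAG in 20.8% and 9.14%. The YY1 core GCCATNTT was found in 13.6% of member promoters and 6.2% of all, the GC box GGGCGG in 47.2% and 35.9%, and CCAAT in 46.4% and 38.0%. The cAMP response element TGACGTCA was found in 2.4% and 1.85%, and the AP-1 site TGAGTCA in 3.6% and 5.17%.

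Among the 22 members that fell and have an entry, the ETS core and the YY1 core were each found in 6 (27.3%), the GC box and CCAAT in 12 each (54.5%), TATAAA and TGAGTCA in 1 each (4.55%) and TGACGTCA in none. Both strands were searched, and a shorter motif may lie inside a match to another. A match is a description of the letters and not of binding.

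Zfp799 and Zfp606 were the other members with a fall of at least 2-fold, named here after their values were seen. Zfp799 read 7.38 and 7.21 in experiment 1, 6.38 and 6.35 in experiment 2, and 5.77 and 6.31 in experiment 3, a difference of -1.25 ± 0.18 (limma adjusted p = 0.0223). The control arm fell by 1.61 and the irradiated arm by 0.90. Zfp606 read 5.88 and 5.61, then 5.22 and 5.06, then 4.63 and 4.85, a difference of -1.0 ± 0.14 (limma adjusted p = 0.0207). At the weak end stood Zfp871, one of the brighter members, with 9.22 on both arrays of experiment 1 and 8.68 and 8.73 in experiment 3.

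Members with known interactions were also among the 25. Zfp90 fell from 7.36 and 7.40 in experiment 1 to 6.51 and 6.59 in experiment 3. Zfp110 (Nrif), which binds the p75 neurotrophin receptor, fell from 8.86 and 8.95 to 8.28 and 8.36. Other role members had negative differences short of the threshold, such as Zfp91 (-0.45 ± 0.10), Zfp24 (-0.42 ± 0.11) and Zfp217 (-0.43 ± 0.10), with limma adjusted p of 0.0852, 0.106 and 0.0976. Over the 26 measured role members, 18 differences were negative and 7 positive, with 2 called lower.

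Where a member that fell has further probe sets, they mostly had the same sign. Of 24 other probe sets of 13 genes, 18 were negative, and 54.0% of all genes had a negative difference. The test was passed by 3 of them, 1 of Zfp28 and 2 of Zfp292. All 10 at or above the median level were negative, so those that were not negative lay below it. Members whose chosen probe set did not pass could also have another that fell. Examples are Zfp207, Zfp148 (-0.58, limma adjusted p = 0.0449) and Zfp266 (-0.88, limma adjusted p = 0.0119). Probe sets of 1 gene share their arrays and are not replicates.

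**Figure D4:**
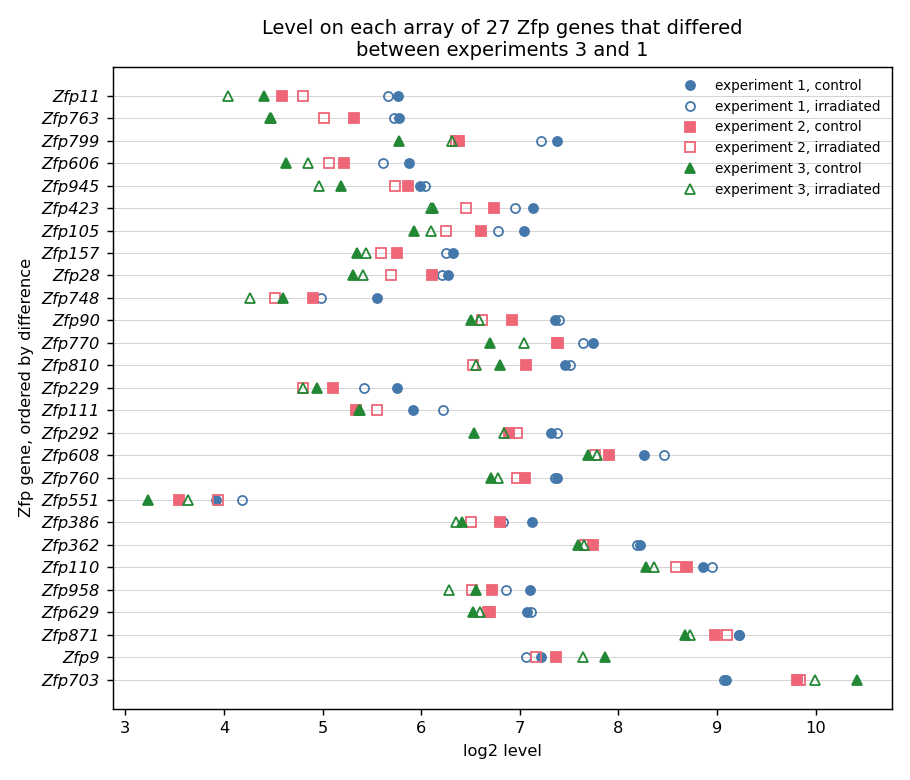
Log2 level on each of the 6 arrays for the 27 Zfp genes that differed between experiments 3 and 1, ordered by the difference, with colours for experiments, filled symbols for controls and open ones for irradiated cultures. In the upper 25 genes the triangles of experiment 3 lie left of the circles of experiment 1, and in Zfp9 and Zfp703 they lie to the right.

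The 2 members that rose were Zfp703 and Zfp9. Zfp703, a repressor of the NLZ family, read 9.09 and 9.07 in experiment 1, 9.81 and 9.84 in experiment 2, and 10.42 and 9.99 in experiment 3. The 3 experiments did not overlap, and the difference was 1.12 ± 0.14, 2.18-fold (limma adjusted p = 0.014). Its other 2 probe sets, at mean levels of 5.35 and 4.75, had -0.19 and -0.29, so the rise rests on 1 probe set. Zfp9 read 7.22 and 7.06, then 7.37 and 7.16, then 7.86 and 7.64, with experiments 1 and 2 overlapping. Its difference was 0.61 ± 0.09 (limma adjusted p = 0.0273). The largest positive difference of all, in Zfp711, did not pass: it read 3.52 and 3.67 in experiment 1 and 5.72 and 4.76 in experiment 3, a difference of 1.65 ± 0.33 with an adjusted p of 0.0601 by limma.

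The steps between neighbouring experiments were smaller. Between experiments 2 and 1, 0 members passed the test by limma (0.649% of all genes did), and the smallest adjusted p was 0.068, for Zfp11. At an unadjusted p under 0.05, 54 members were lower (17.8%; 4.63% of all genes) and 11 higher (3.62%; 4.77% of all genes). The median difference was -0.11, against -0.02 over all genes. Between experiments 3 and 2, 0 members passed by limma (0.044% of all genes did), with a smallest adjusted p of 0.16 for Zfp945. There 51 members had an unadjusted p under 0.05 (16.8%; 9.15% of all genes), 24 higher and 27 lower, and the median difference was -0.015 against -0.01. These comparisons share arrays, since each experiment enters a pair of them. Zfp948 shows the other course: it read 7.71 and 7.73 in experiment 1, 8.54 and 8.69 in experiment 2, and 8.61 and 8.26 in experiment 3.

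Position in the genome was taken from the RefSeq gene order, with members counted as neighbours when at most 5 other protein-coding genes lay between them. Of 301 members placed, 109 lay in 13 runs of 5 or more, 79 in runs of 2 to 4 and 113 alone. Of the 25 members that fell, 10 lay in the long runs, 4 in the short ones and 11 alone. The median experiment 3 minus 1 difference was -0.11, -0.11 and -0.09 in the 3 classes. Mean array levels differed more, with medians of 5.61, 6.10 and 6.44.

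A run of 8 members on chromosome 17 had the lowest median of the long runs, -0.48. Zfp763, Zfp799 and Zfp871 fell, and Zfp472 (-0.87 ± 0.18), Zfp870 (-0.45 ± 0.15), Zfp952 (-0.24 ± 0.09) and Zfp563 (-0.09 ± 0.10) were negative without passing. Zfp811, which lies between 2 of those that fell, had a positive difference of 0.59 ± 0.12 (limma adjusted p = 0.0666) at a mean level of 3.73. The largest run, of 22 members on the same chromosome, held Zfp760, Zfp229 and Zfp945, which fell, and ranged from -0.94 to 0.71 with a median of -0.20. Neighbouring paralogs can be alike in sequence, and their probes may bind each other's transcripts. That was not tested.

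**Figure D5:**
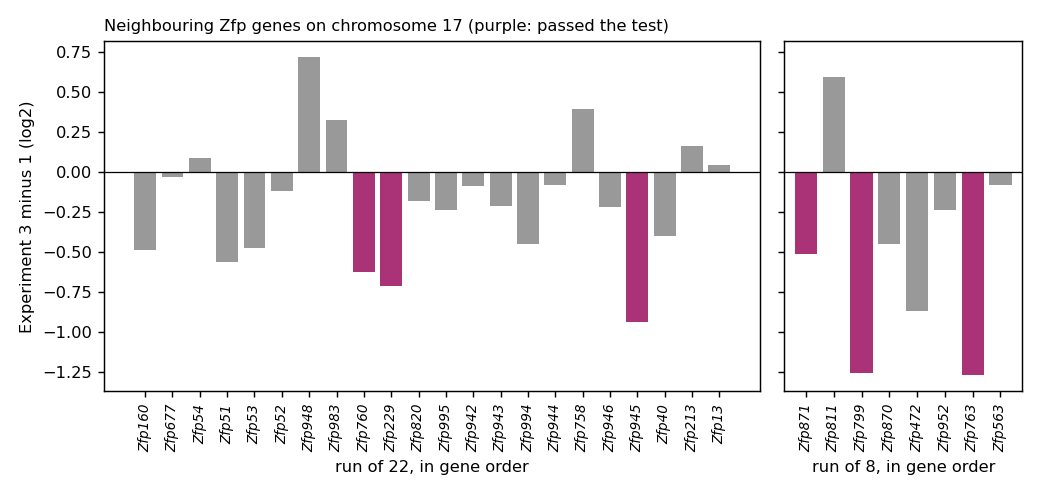
Experiment 3 minus 1 difference (log2) of the Zfp genes in 2 runs on chromosome 17, as bars in gene order, with the members that passed the test in purple. The bars differ in size and sign between direct neighbours, from -0.94 to 0.71 in the run of 22 and from -1.27 to 0.59 in the run of 8.

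Other zinc finger families and the KRAB partners were read for comparison. None of the 26 corepressors and silencing factors passed the test between experiments 3 and 1, with 19 negative differences and a median of -0.12. Trim28 had a difference of 0.00 and Setdb1 of -0.19. Of 39 Zbtb genes 2 fell and 3 rose (median -0.14), and of 20 Zscan and Zkscan genes Zscan12 fell (median -0.10). Of the 23 Klf and Sp genes, Sp1 fell and 4 rose, namely Klf2, Klf4, Klf6 and Klf16 (median 0.09). Over all genes 1.07% fell and 2.07% rose. Klf4 rose by 2.86 and Klf2 by 2.54, more than any Zfp gene. The difference between the families was not tested.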

How the data were processed

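RNA from 6 cultures was labelled from 200 ng and hybridized to Affymetrix mouse expression arrays, per the labels' protocols. The deposited values are log2 levels. Per the submitters' processing notes the authors used limma, affy and RMA, in versions that are not given in the sources used here. RMA summarizes probes and equalizes the arrays, so a shift shared by all transcripts cannot be seen. The scanner files were not used here.

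The table holds 45101 probe sets, of which 64 controls were left out and 45037 tested. The platform annotation gave 34945 a single symbol, 932 several and 9160 none here. All 304 members matched the RefSeq gene table (GRCm38.p6). The model was limma's (version 3.58.1 under R 4.3.3; lmFit, eBayes), with experiment and irradiation as terms. Two-sided p was adjusted by Benjamini and Hochberg's method for all 45037 tests, and under 0.05 counted as passing. Intervals are 95% and moderated, and n limits the precision. The fit was tested on simulated data. An earlier draw, with noise at the arrays' moderated variances, gave more false calls than the threshold implies, after which variances drawn from the fitted prior were used. False calls then lay around or somewhat above that share under both noise models.

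The pairing follows the series design, which sets each control beside its irradiated culture. Deviations of paired arrays from their group means correlated at 0.63, 0.14 and 0.50 across probe sets, which are not independent. The members, gene lists and naming rule were chosen with earlier results of these data known. Named members are the 8 of highest level, in each direction the 6 of smallest p with the same sign in all pairs and a level at or above the median for irradiation, the 5 of smallest adjusted p for each experiment comparison, and a list of role genes. Alternatives changed the block, normalization, level filter, prior, array weights, probe set choice and the samples included. Protein domains were not analysed here.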

Additional observations from a re-analysis of the deposited data

How the results depend on the processing

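For irradiated minus control, 0 members passed the test under every alternative run, namely the fit with no replicate block, the random replicate block, quantile normalization, median centring, the level filter, the intensity trend, the robust prior, array weights, the mean of probe sets and each experiment left out. The median of members then ran from -0.015 to 0.025, which is within the spread of the 3 pairs. The count with the same sign in all 3 pairs was not recomputed on fewer pairs, where it is another quantity.

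Counts between experiments depended more on the settings. For experiment 3 minus 1, members called lower numbered 40 with the intensity trend, which held all 25, and 19 to 34 in the other fits on all arrays. Members called higher numbered 6 with no irradiation term, 7 with the level filter, 8 with the intensity trend and 5 with the mean of probe sets. With a sample left out, both counts ranged from 0 to 0, and over all 45037 probe sets such fits also gave 0 calls. For experiment 2 minus 1, members called higher numbered 1 with no irradiation term, the level filter or array weights and 2 with the intensity trend, and members called lower 1, 3, 2 and 8 in that order of settings and 2 with the mean of probe sets. For experiment 3 minus 2, 1 member was called lower with the intensity trend. Over all probe sets the trend raised experiment 3 minus 1 calls from 841 higher and 533 lower to 1596 and 1938. The 7 named experiment genes lost their call in 49 of 49 values with a sample left out and in 2 of 56 others, and the 12 named irradiation genes kept theirs as not called in 144 of 144. Leaving out probe sets that can bind other transcripts was added after seeing the data and left 24 members called lower. The cause of these shifts was not tested. A fit with an array or pair missing keeps a single residual degree of freedom.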
